A study of Mus musculus with 6 samples.

Results

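The granzymes are serine proteases that cytotoxic lymphocytes keep in secretory granules, and perforin is the pore-forming protein that is released with them. The 10 genes described here are Gzma, Gzmb, Gzmc, Gzmd, Gzme, Gzmf, Gzmg, Gzmk, Gzmm and Prf1. They were taken by symbol from the 23930 genes of the table, and all 10 were found.

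When a CD8+ T cell or an NK cell meets its target, granules fuse with the cell membrane, perforin opens the target's membrane, and granzymes enter and cleave proteins inside. Granzyme B cleaves after aspartate and activates caspases, granzyme A and granzyme K cleave after basic residues, and granzyme M cleaves after methionine or leucine. Granzymes C to G are found in rodents and have no counterpart of the same name in humans. In mouse lymphocytes their transcripts appear late after strong or repeated activation, later than that of granzyme B.

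RNA came from CD31-positive cells sorted by flow cytometry from subcutaneous tumours of C57/Bl6 mice, 2 weeks after injection of cells of the mouse lung tumour line LLC (Lewis lung carcinoma). The BMP9 overexpression group has 3 libraries (replicates 4, 5 and 6) from tumours of LLC cells that overexpressed BMP9, a circulating BMP-family ligand with receptors on endothelial cells. The Control group has 3 libraries (replicates 1, 2 and 3) from tumours of control LLC cells. Both groups share the host strain, the tumour line, the sort and the time of removal. The labels put the overexpression in the LLC cells, which the sort for CD31 did not target. Gdf2, which encodes BMP9, had 1, 1 and 5 reads in BMP9 overexpression libraries and 0 in each Control library. The labels do not give the vector of the control cells, the number or the age of the animals, or whether a library is 1 animal. The p-values therefore reflect library-to-library spread, which may be technical.

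Levels are RPM, the reads of a gene's amplicon scaled to a common library total. Each gene was read through a short amplified segment, so levels of different genes are not compared here. Libraries held 1321762 to 28380957 reads, and BMP9 overexpression replicate 6 was the deepest. CD31 is encoded by Pecam1, which averaged 303 ± 53.5 RPM in BMP9 overexpression and 448 ± 84.3 RPM in Control libraries (SD, n = 3 each). Of 16 endothelial markers 5 passed the low-value filter (at least 5 RPM in 3 libraries) and 8 were listed at 0 in at least 1 library. Flt1 (log2 fold change 1.83) rose, Kdr (-1.32) fell, and Eng (0.68, limma adjusted p = 0.063) did not pass. With TMM Kdr did not pass (-1.11, limma adjusted p = 0.065) and Eng rose (0.93, limma adjusted p = 0.016). Kdr, at 2.96 to 4.762 RPM in BMP9 overexpression, passed the filter through the Control libraries alone. All 12 T cell markers and all 10 NK cell markers had reads in every library. Over all 9460 genes that passed the filter, 1200 (12.7%) were called higher and 2130 (22.5%) lower in BMP9 overexpression (limma, adjusted p of at most 0.05). TMM scaling turned this split to 1629 higher (17.2%) and 1383 lower (14.6%), and without Control replicate 1 the lower calls were 1367. The median log2 fold change of the 9460 genes was -0.24 with RPM and 0.00 with TMM, and fold changes below are to be read against that shift.

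The granzymes and perforin had lower RPM in CD31-positive cells sorted from tumours of BMP9-overexpressing LLC cells. Their summed level was 341.4, 335.2 and 233.2 RPM in BMP9 overexpression replicates 4, 5 and 6, against 3646, 2867 and 2689 RPM in Control replicates 1, 2 and 3. The groups did not overlap, and the mean of the sums was 10.1-fold lower. In sorted bulk RNA, fewer granzyme-expressing cells and less RNA per such cell cannot be told apart. For each of the 10 genes the highest BMP9 overexpression library was below the lowest Control library. Among all genes with reads 19.4% separated the groups in this direction. A total of 8 members passed the filter, and all 8 fell (limma, adjusted p from 1.6e-06 to 0.0088), where 22.5% of the genes tested were called lower. Of these 8, Gzmd, Gzme, Gzmf and Gzmk passed through the Control libraries alone, so the filter favoured a difference and the count is a description. The same number, 8, was called lower by edgeR and by DESeq2 on recovered reads, where 15% and 16.3% of genes were. In the fit without a filter, 8 of the 10 were called lower, where 8.27% of genes were, and Gzmk (limma adjusted p = 0.087) and Gzmg were not. The median log2 fold change of the 10 in that fit was -3.19, against -0.04 over all genes with reads.

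**Figure D1:**
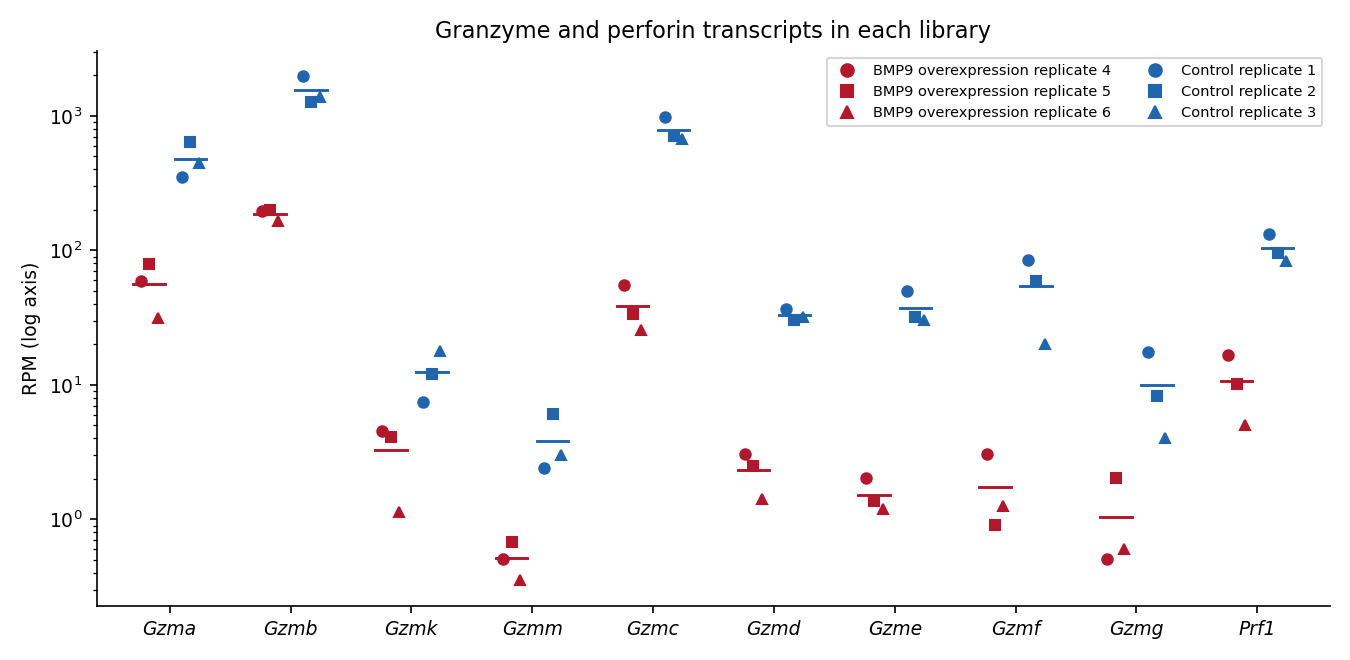
RPM of each granzyme and of perforin in every library on a log axis, BMP9 overexpression (red, left of each pair) and Control (blue, right), with group means as bars (n = 3 each). Red points lie below blue points for all 10 genes, by the widest margin for Gzme and Gzmc.

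Gzmb encodes granzyme B, the caspase-activating protease of cytotoxic T cells and NK cells. It was at 196.5, 200.9 and 165.3 RPM in BMP9 overexpression replicates 4, 5 and 6, against 1978, 1277 and 1384 RPM in Control replicates 1, 2 and 3. The 3 BMP9 overexpression libraries were close to each other and the lowest Control library was 6.36-fold above the highest of them. The log2 fold change of RPM + 1 was -3.02 (SE 0.27, limma adjusted p = 3.6e-06). Gzmb gave 57.6% to 70.9% of the summed member reads in BMP9 overexpression and 44.5% to 54.3% in Control libraries.

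Prf1 encodes perforin, without which granzymes do not reach the interior of the target. It was at 16.71, 10.21 and 5.074 RPM in BMP9 overexpression replicates 4, 5 and 6, against 131.6, 95.33 and 83.51 RPM in Control replicates 1, 2 and 3. Replicate 4 was the highest of its group and still 5-fold below the lowest Control library. Prf1 fell by 3.27 on the log2 scale (SE 0.38, limma adjusted p = 1.9e-05). Its share of the Gzmb level was 8.51%, 5.08% and 3.07% in BMP9 overexpression and 6.65%, 7.46% and 6.03% in Control libraries, with overlap between the groups.

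Gzma encodes granzyme A, a tryptase that is abundant in NK cells. It was at 58.75, 78.69 and 31.46 RPM in BMP9 overexpression replicates 4, 5 and 6, against 351, 641.6 and 442.5 RPM in Control replicates 1, 2 and 3. The groups were 4.46-fold apart at their nearest libraries. Gzma fell by 3.11 on the log2 scale (SE 0.34, limma adjusted p = 1.3e-05).

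Gzmk encodes granzyme K, another tryptase, which memory-like CD8+ T cells express. It was at 4.558, 4.082 and 1.128 RPM in BMP9 overexpression replicates 4, 5 and 6, against 7.418, 12.11 and 18 RPM in Control replicates 1, 2 and 3. The nearest libraries of the groups were only 1.63-fold apart, the smallest gap of the 10 genes, and BMP9 overexpression replicate 6 was well below replicates 4 and 5. Gzmk fell by 1.71 on the log2 scale (SE 0.45, limma adjusted p = 0.0088), and without BMP9 overexpression replicate 6 the value was -1.27 (limma adjusted p = 0.062). Its 95% interval, from -2.67 to -0.75, did not overlap those of Gzmc (-5.03 to -3.72), Gzme (-4.67 to -3.13) or Gzmf (-5.23 to -3.17), and overlapped those of the other 6 genes. The edgeR fit on recovered reads, which uses no pseudocount of 1 RPM, gave -1.91 for Gzmk and -4.14 for Gzmc.

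Gzmm encodes granzyme M, a protease of innate lymphocytes such as NK cells. Its level was near the limit of detection in BMP9 overexpression, with 1, 3 and 10 reads in replicates 4, 5 and 6 (0.506, 0.68 and 0.352 RPM), against 11, 8 and 6 reads in Control replicates 1, 2 and 3 (2.4, 6.053 and 3 RPM). The groups did not overlap in RPM, but the single read of replicate 4 allows 0.0128 to 2.82 RPM (95% Poisson interval, counting error only), which reaches the lowest Control value. Gzmm was below the filter. Without the filter its log2 fold change was -1.60 (SE 0.35, limma adjusted p = 0.031), and the call was lost when BMP9 overexpression replicate 4, 5 or 6 or Control replicate 1 or 3 was left out, with limma adjusted p just above the threshold to 0.077. It was also lost with quantile normalization (limma adjusted p = 0.071), with a term for the run time stamp (0.12) and among earlier-stamped libraries alone (0.19).

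**Figure D2:**
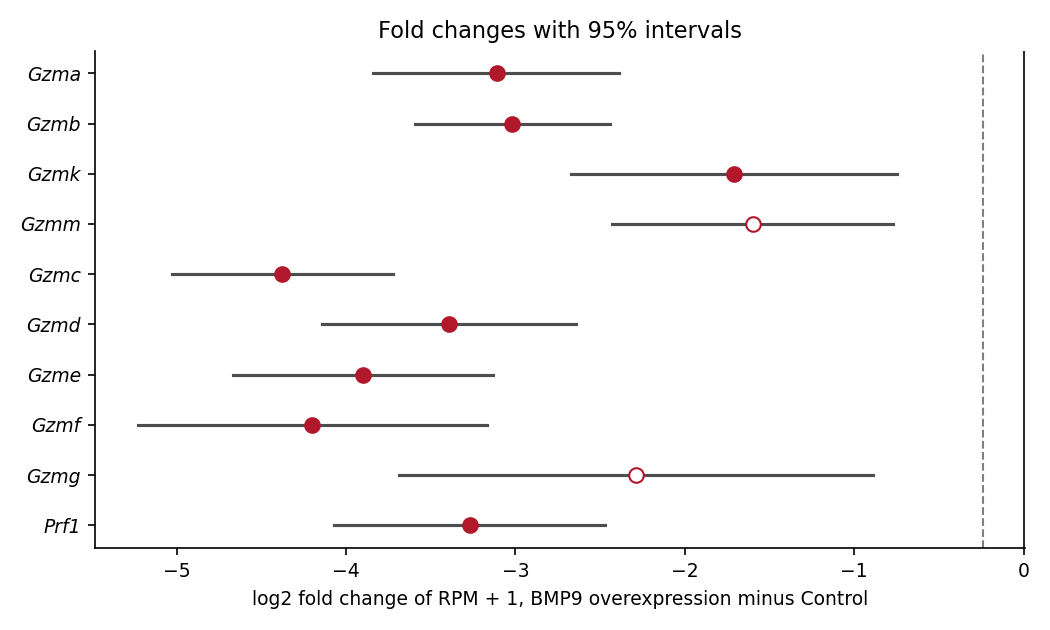
Log2 fold change of RPM + 1, BMP9 overexpression minus Control, for each gene with its 95% interval from limma (n = 3 each). Open points (Gzmm, Gzmg) come from the fit without a filter. The dashed line is the median of all tested genes, -0.24, and no interval reaches it.

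Gzmb and the granzymes C to G lie in 1 locus of chromosome 14, all on the minus strand (GENCODE M21, mm10). Along the chromosome the order is Gzme (56117626 to 56120625), Gzmd (56129556 to 56132608), Gzmg (56156582 to 56159579), Gzmf (56205263 to 56211417), Gzmc (56231441 to 56234656) and Gzmb (56258838 to 56262260), a span of 144.6 kb, with Gzmn between Gzmg and Gzmf. Gzma (113093825 to 113100981) and Gzmk (113171608 to 113225908) are neighbours on chromosome 13. Prf1 (61297833 to 61304680) and Gzmm (79689020 to 79695261) are both on chromosome 10 and far apart. Each granzyme has 5 exons, Prf1 has 3, and all are annotated as protein coding. The position of each amplicon in its transcript was not used here.

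The coding sequences of granzymes D to G are close copies of each other. Gzmd and Gzme were identical in 93.3% of aligned bases, with an unbroken identical stretch of 96 bases, and Gzme and Gzmg in 89.3%. Gzmc shared 71.1% to 72.8% with the 4 others and 75.6% with Gzmb, and Gzma shared 55.3% with Gzmk. A short read may therefore fit more than 1 of granzymes D to G, and how the reads were divided among them is uncertain. The following 60 bases are the stretch of the coding sequence that differs most among Gzmc to Gzmg (37 of 60 positions), read 5′ to 3′ on the coding strand from GENCODE M21 transcripts. They are shown because they set Gzmc apart from the others within the locus. Capitals mark bases that differ from Gzmc, in coding bases 631 to 690 of Gzmc and the aligned bases of the rest.
Gzmb: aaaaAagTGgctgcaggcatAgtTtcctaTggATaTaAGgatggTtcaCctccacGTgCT
Gzmc: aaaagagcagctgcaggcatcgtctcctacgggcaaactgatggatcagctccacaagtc
Gzmd: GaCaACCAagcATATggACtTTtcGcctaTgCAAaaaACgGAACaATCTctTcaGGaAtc
Gzme: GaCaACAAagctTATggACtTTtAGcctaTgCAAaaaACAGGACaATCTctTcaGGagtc
Gzmf: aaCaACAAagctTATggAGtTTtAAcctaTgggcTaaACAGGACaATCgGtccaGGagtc
Gzmg: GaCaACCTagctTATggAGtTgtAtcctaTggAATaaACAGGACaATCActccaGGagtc
Gzmb differs from Gzmc at 17 of these 60 bases and Gzmd, Gzme, Gzmf and Gzmg at 33, 33, 29 and 30, so in this stretch Gzmc is closer to Gzmb than to the granzymes that lie farther along the locus.

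In the limma fit granzyme C had the lowest log2 fold change of all 9460 genes tested. Gzmc was at 55.71, 33.79 and 25.4 RPM in BMP9 overexpression replicates 4, 5 and 6, against 985.5, 705.9 and 671.6 RPM in Control replicates 1, 2 and 3. The lowest Control library stood 12.1-fold above the highest BMP9 overexpression library. The log2 fold change was -4.38 (SE 0.31, limma adjusted p = 1.6e-06), and with the 95% interval of -5.03 to -3.72 it lay below that of Gzmb, -3.59 to -2.44. In the same order Gzmf was at rank 3 and Gzme at rank 8, ranks that depend on the pseudocount for genes this low. By edgeR on recovered reads Gzmf (-4.98) and Gzme (-4.50) fell further than Gzmc (-4.14). By DESeq2 they also did (-4.96 and -4.53, against -4.15), so the first place of Gzmc depends on the method.

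Granzymes D, E and F were low in BMP9 overexpression libraries in absolute reads. Gzme, encoding granzyme E, had 2.026, 1.361 and 1.198 RPM (4, 6 and 34 reads) in BMP9 overexpression replicates 4, 5 and 6, against 49.74, 31.78 and 30.5 RPM in Control replicates 1, 2 and 3. This was the widest gap between the groups, 15.1-fold at the nearest libraries, with a log2 fold change of -3.90 (SE 0.36, limma adjusted p = 4.6e-06). Gzmd, encoding granzyme D, had 3.039, 2.495 and 1.409 RPM in BMP9 overexpression, against 36.87, 30.26 and 32 RPM in Control libraries. The Control libraries agreed closely for Gzmd, which fell by 3.39 on the log2 scale (SE 0.35, limma adjusted p = 1e-05). Gzmf, encoding granzyme F, had 3.039, 0.907 and 1.268 RPM in BMP9 overexpression, against 85.31, 59.01 and 20 RPM in Control libraries. Control replicate 3 was well below the other Control libraries for Gzmf, and the log2 fold change was -4.20 (SE 0.48, limma adjusted p = 1.9e-05). With a pseudocount of 5 in place of 1 the values of Gzmd, Gzme and Gzmf were -2.38, -2.67 and -2.97.

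Granzyme G missed the threshold. Gzmg had 0.506, 2.041 and 0.599 RPM in BMP9 overexpression replicates 4, 5 and 6, from 1, 9 and 17 reads, against 17.45, 8.322 and 4 RPM in Control replicates 1, 2 and 3. The nearest libraries, BMP9 overexpression replicate 5 and Control replicate 3, were 1.96-fold apart. It was below the filter, and without the filter its log2 fold change was -2.29 (SE 0.58, 95% interval -3.69 to -0.89), just outside the limma threshold. It passed in 6 of 17 alternatives, among them without BMP9 overexpression replicate 6 (limma adjusted p = 0.031), without Control replicate 3 (limma adjusted p = 0.042) and by edgeR on recovered reads (-3.07, adjusted p = 3.9e-06), and adjusted p values over the 17 reached 0.19.

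The log2 fold changes of granzymes C to G averaged lower than those of the other granzymes, but the 2 subgroups overlapped gene by gene. In the fit without a filter Gzmg (-2.29) fell less than Gzma (-3.11) and Gzmb (-3.02), and Gzmd (-3.39) was near them. Gzmk (-1.71) and Gzmm (-1.60), both low in reads, fell least and raise the mean of their subgroup. The mean of the 5 genes minus that of Gzma, Gzmb, Gzmk and Gzmm was -1.27 in the fit without a filter, -1.55 by edgeR or DESeq2 on recovered reads and -0.76 with a pseudocount of 5. Per library the difference between the subgroups, in log2 units centred on each gene's mean, was -0.53, -0.91 and -0.47 in BMP9 overexpression replicates 4, 5 and 6, against 1.45, 0.39 and 0.07 in Control replicates 1, 2 and 3. The groups did not overlap, with Control replicate 1 far above the other Control libraries, and without that library the value was -0.87. This is a description of a score over members, with no test. The pseudocount shrinks the fold changes of all low genes in both subgroups, as in Gzmf (-4.20 on the log2(RPM + 1) scale and -4.98 by edgeR) and Gzmm (-1.60 and -2.58).

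The ratio to Gzmb within a library does not depend on how libraries are scaled, and is compared between groups, not between genes. Gzmc stood at 28.4%, 16.8% and 15.4% of Gzmb in BMP9 overexpression replicates 4, 5 and 6, against 49.8%, 55.3% and 48.5% in Control replicates 1, 2 and 3. The mean ratio was 2.54-fold lower and the groups did not overlap. Gzme stood at 1.03%, 0.677% and 0.725% of Gzmb in BMP9 overexpression, against 2.51%, 2.49% and 2.2% in Control libraries. Gzmd also separated the groups, with 0.852% to 1.55% in BMP9 overexpression and 1.86% to 2.37% in Control libraries. Of the 9 ratios to Gzmb these 3 were lower without overlap and 6 overlapped. Among all genes with reads 0.317% had a lower ratio to Gzmb without overlap. Gzma stood at 19% to 39.2% of Gzmb in BMP9 overexpression and 17.7% to 50.2% in Control libraries, and Gzmk at 0.682% to 2.32% in BMP9 overexpression and 0.375% to 1.3% in Control libraries. Gzmf (0.451% to 1.55% in BMP9 overexpression and 1.45% to 4.62% in Control libraries) overlapped through Control replicate 3, and Gzmg (0.258% to 1.02% in BMP9 overexpression and 0.289% to 0.882% in Control libraries) overlapped broadly.

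**Figure D3:**
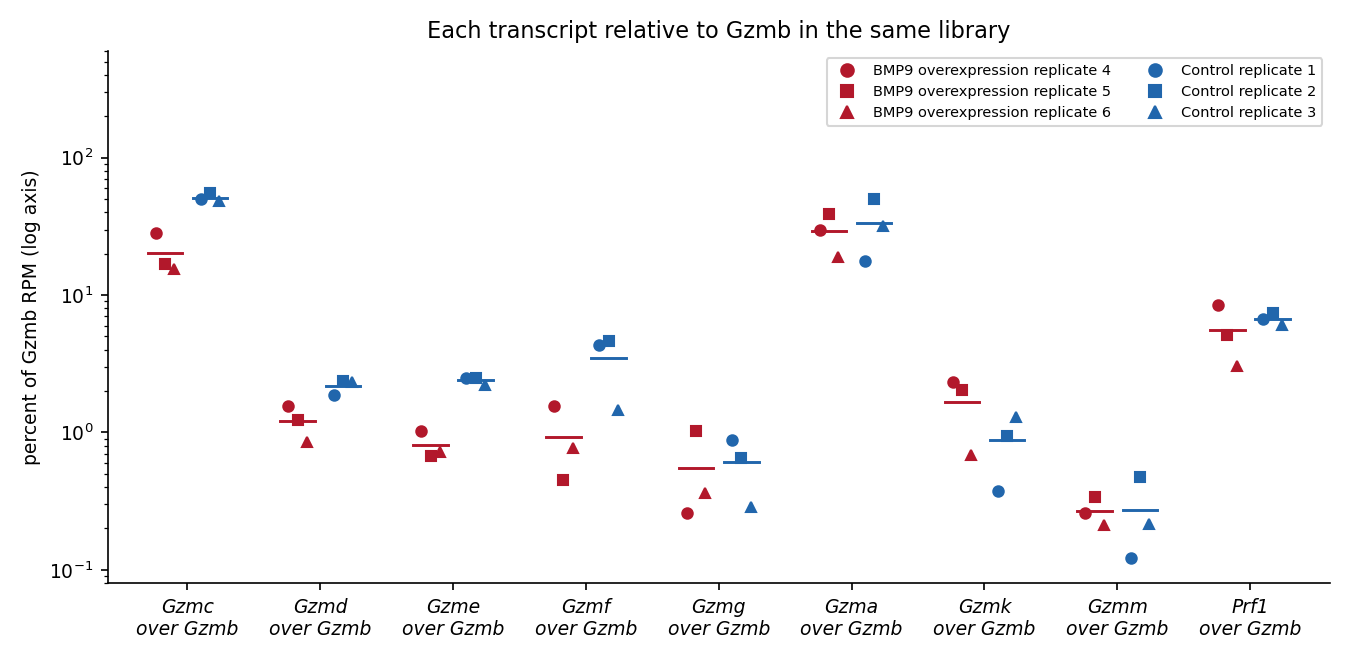
Level of each transcript as a percent of the Gzmb level of the same library, on a log axis, BMP9 overexpression (red) left of Control (blue), with group means as bars (n = 3 each). Gzmc, Gzmd and Gzme have lower shares in all 3 BMP9 overexpression libraries, and the other 6 ratios overlap.

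Libraries of 1 group also differed among themselves in a shared way. BMP9 overexpression replicate 6 had the lowest level of its group for 8 of the 10 genes, all but Gzmf and Gzmg, and its T cell and NK cell marker sums were also the lowest (403.4 and 230.2 RPM, against 580.8 to 581.9 and 415.7 to 419.3 RPM in replicates 4 and 5). Control replicate 1 was highest for 7 genes (Gzmb to Gzmg and Prf1) and lowest of the Control libraries for the other 3 (Gzma, Gzmk and Gzmm). Its T cell marker sum was the lowest of the Control libraries, 1896 RPM. BMP9 overexpression replicate 4 and all Control libraries carry the earlier of 2 run time stamps, and the other BMP9 overexpression libraries carry the later one. Within the earlier stamp, log2 fold changes were -2.94 for Gzmb, -3.78 for Gzmc, -2.53 for Prf1 and -1.20 for Gzmk, and 7 of the 8 tested members were called lower, all but Gzmk (limma adjusted p = 0.12). That setting rests on 1 BMP9 overexpression library, which is assumed to vary like the Control libraries.

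Markers of the cells that make granzymes moved in the same direction. Of 11 tested T cell markers 11 fell (6 in the fit without a filter), with a median log2 fold change of -1.75, and the 12 measured summed to 403.4 to 581.9 RPM in BMP9 overexpression and 1896 to 2306 RPM in Control libraries. Of 10 NK cell markers 10 fell, with a median of -2.91, and their sum was 230.2 to 419.3 RPM in BMP9 overexpression and 2012 to 2321 RPM in Control libraries. None of these markers was at 0 in any library. Over all tested genes 22.5% were called lower, and in the fit without a filter 8.27% of genes were. Cd8a, the coreceptor of cytotoxic T cells, had a log2 fold change of -2.86 (SE 0.35), with Cd3e at -2.41 and Cd8b1 at -2.99. Klrd1, the CD94 chain of NK receptors, had -3.76 (SE 0.30), with Klra4 at -3.52 and Klre1 at -3.15. The marker sums were 4.12-fold (T cells) and 6.17-fold (NK cells) lower, against 10.1-fold for the summed granzymes and perforin.

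Relative to the summed T and NK cell markers of the same library, 7 of the 10 genes still separated the groups. Among all genes with reads 0.805% had a lower ratio to these markers without overlap. Gzmc was at 5.56%, 3.39% and 4.01% of the marker sum in BMP9 overexpression replicates 4, 5 and 6, against 23.8%, 15.3% and 15.8% in Control replicates 1, 2 and 3, a 4.23-fold lower mean. Gzmb was at 19.6%, 20.2% and 26.1% in BMP9 overexpression, against 47.8%, 27.6% and 32.5% in Control libraries. The Gzmb groups came close, with BMP9 overexpression replicate 6 just under Control replicate 2. Prf1 was at 0.801% to 1.67% in BMP9 overexpression and 1.96% to 3.18% in Control libraries. Gzmk (0.178% to 0.455% in BMP9 overexpression and 0.179% to 0.423% in Control libraries), Gzmm and Gzmg overlapped. With NK cell markers alone as the denominator 5 genes separated the groups (0.471% of all genes), and with T cell markers alone 8 did (1.25% of all genes). Against NK cell markers alone Gzmb overlapped, at 46.9% to 71.8% in BMP9 overexpression and 55% to 88.2% in Control libraries. Gzma also overlapped, at 13.7% to 18.9% in BMP9 overexpression and 15.7% to 27.6% in Control libraries. Macrophage and monocyte markers moved the other way, with 13 of 13 tested higher, where 12.7% of all tested genes were. Itgam had 3.21, Mrc1 2.84 and Cd68 2.77 on the log2 scale. The macrophage and monocyte marker sums were 19034 to 25168 RPM in BMP9 overexpression and 4799 to 7370 RPM in Control libraries. Cd163, at 0 to 3.927 RPM in Control libraries, passed the filter through the BMP9 overexpression libraries alone. RPM is a share of the library, and the part of these shifts in cell makeup in the granzyme differences was not tested.

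**Figure D4:**
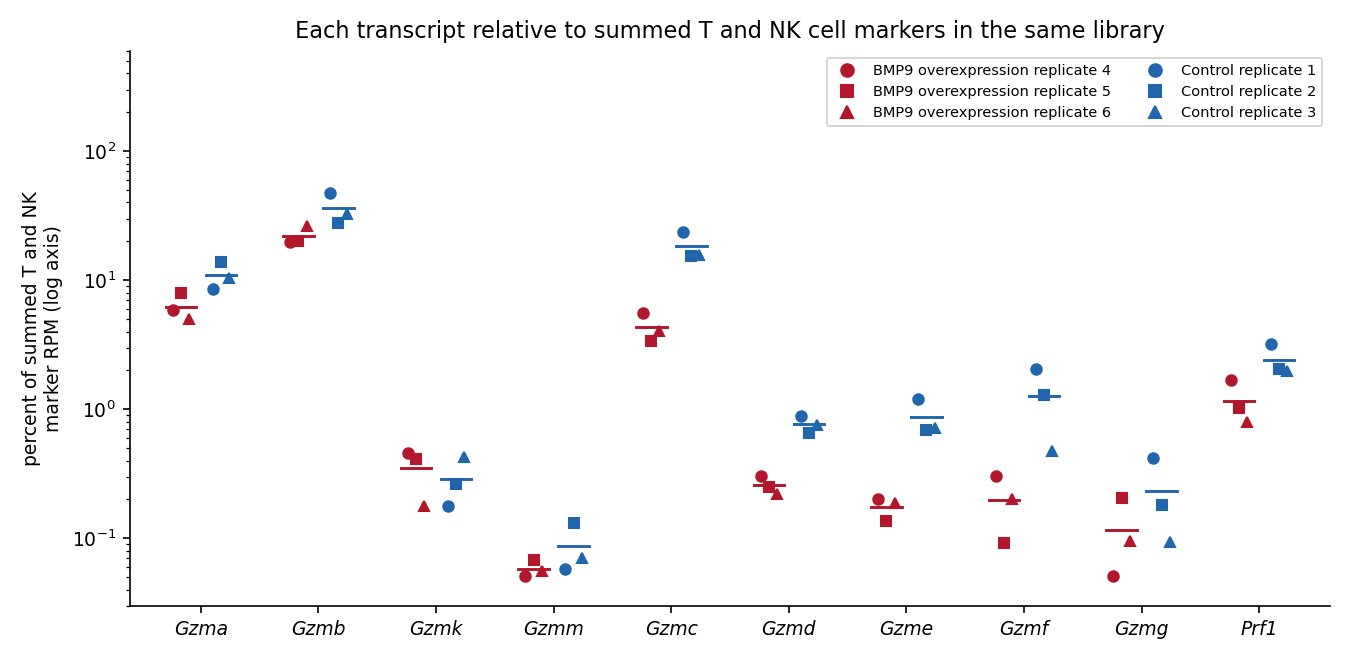
Level of each gene as a percent of the summed T cell and NK cell markers (22 genes) of the same library, on a log axis, BMP9 overexpression (red) left of Control (blue), with group means as bars (n = 3 each). Gzmk, Gzmm and Gzmg overlap between the groups, and the other 7 genes are lower in every BMP9 overexpression library.

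The locus of Gzmb continues into protease genes of mast cells and basophils, of which 1 rose and 0 fell among 3 tested. Cma1, a mast cell chymase at the far end of the locus, was at 158, 94.79 and 93.65 RPM in BMP9 overexpression, against 96.87, 65.06 and 75.01 RPM in Control libraries, with overlap (log2 fold change 0.52, limma adjusted p = 0.19, and 0.77 with TMM, just outside the threshold). Mcpt4, another mast cell protease, had -0.21 (limma adjusted p = 0.73) and 0.05 with TMM. Mcpt8, the basophil protease, rose by 3.10 on the log2 scale (SE 0.52, limma adjusted p = 0.00038), with 58.75, 121.6 and 38.86 RPM in BMP9 overexpression, against 15.71, 2.27 and 7.501 RPM in Control libraries. It lies between Mcpt4 and Ctsg, beside the granzyme end of the locus. Of 9 tested mast cell and basophil markers 6 rose (Hdc, 2.32, Mcpt8 and Gata2, 2.09, with the smallest p) and 0 fell. Over all tested genes 12.7% were called higher and 22.5% lower. Of the 6, Fcer1a, at 0.757 to 3.054 RPM in Control libraries, passed the filter through the BMP9 overexpression libraries alone. The 10 measured summed to 516.4 to 868.1 RPM in BMP9 overexpression and 171 to 385.5 RPM in Control libraries.

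**Figure D5:**
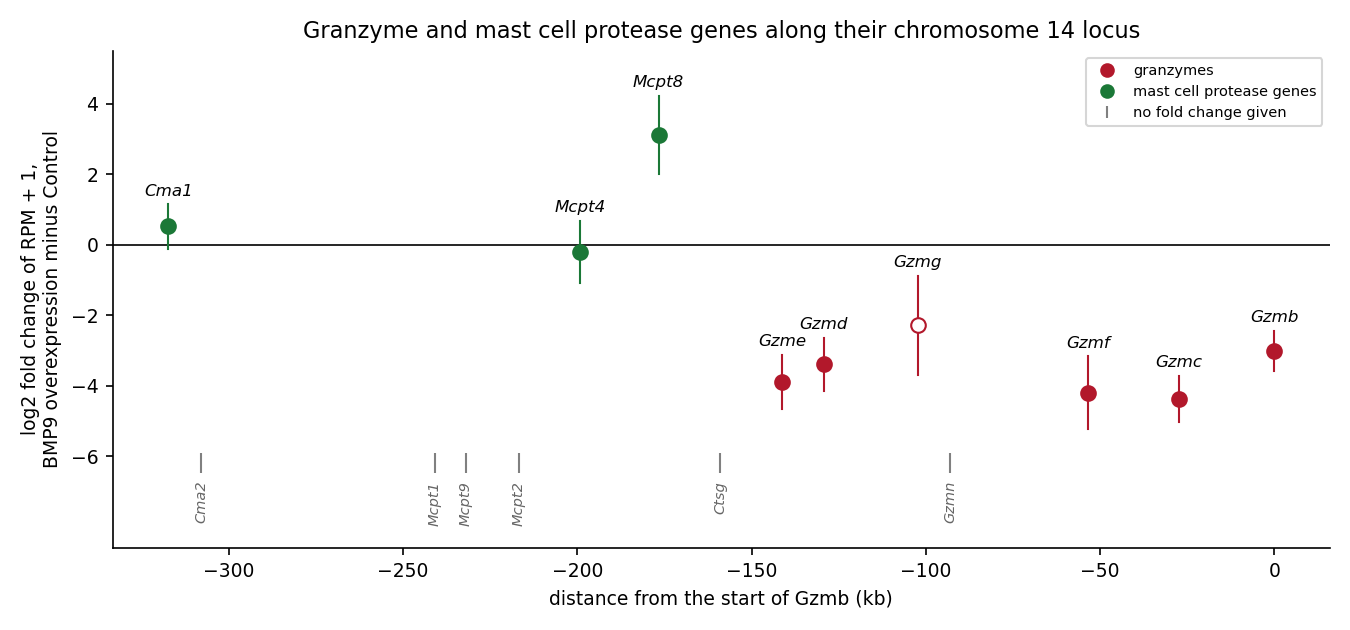
Log2 fold change of RPM + 1 (BMP9 overexpression minus Control) with 95% intervals along the granzyme and mast cell protease locus, against distance from the start of Gzmb in kb. Granzymes (red) lie below 0, Mcpt8 (green) is at 3.10 and the intervals of Cma1 (0.52) and Mcpt4 (-0.21), also green, include 0. The open point is from the fit without a filter, and ticks mark genes with no fold change given.

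Promoter windows of the genes, which fell together, were read from RefSeq (GRCm38.p6), 250 bases before to 50 after each start. All 10 genes matched, with 11 windows. The 250 bases upstream are printed for Gzmc, Gzmb, Prf1 and Gzmk. In the limma fit Gzmc and Gzmb had the lowest and the highest log2 fold change of the tested members of the locus. Gzmk fell least of the tested members. Capitals mark TGTGGT (the letters RUNX factors prefer), GGTGTG (T-box), TGANTCA (AP-1), TGACGT (part of the CRE) and CACGTG (E-box) on either strand. Matches in the 50 bases after the start (GGTGTG in Gzmc, TGACGT in Gzmb) lie outside the printed bases. The windows are chr14:56234658-56234907 (minus strand), chr14:56262335-56262584 (minus strand), chr10:61297586-61297835 (plus strand) and chr13:113180966-113181215 (minus strand).
Gzmc: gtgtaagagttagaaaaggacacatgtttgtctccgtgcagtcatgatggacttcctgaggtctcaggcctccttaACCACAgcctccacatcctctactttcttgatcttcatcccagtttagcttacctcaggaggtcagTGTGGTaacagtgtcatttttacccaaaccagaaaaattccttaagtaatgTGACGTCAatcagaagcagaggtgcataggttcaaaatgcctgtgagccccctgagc
Gzmb: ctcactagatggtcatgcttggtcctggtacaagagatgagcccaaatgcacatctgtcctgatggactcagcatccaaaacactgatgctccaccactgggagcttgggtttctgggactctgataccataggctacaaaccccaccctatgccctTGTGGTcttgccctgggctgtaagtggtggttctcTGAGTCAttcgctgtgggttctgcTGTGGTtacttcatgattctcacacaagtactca
Prf1: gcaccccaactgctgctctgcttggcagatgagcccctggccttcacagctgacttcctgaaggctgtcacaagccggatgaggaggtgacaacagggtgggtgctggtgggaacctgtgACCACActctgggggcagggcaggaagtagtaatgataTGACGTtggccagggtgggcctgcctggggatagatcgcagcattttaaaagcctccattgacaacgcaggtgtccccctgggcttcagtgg
Gzmk: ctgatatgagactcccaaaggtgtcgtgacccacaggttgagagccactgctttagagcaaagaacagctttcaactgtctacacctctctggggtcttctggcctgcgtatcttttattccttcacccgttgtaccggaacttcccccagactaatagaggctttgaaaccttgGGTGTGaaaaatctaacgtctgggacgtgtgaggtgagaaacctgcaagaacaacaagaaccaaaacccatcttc
TGTGGT was found in windows of 9 of the 10 genes, all but Gzmk, and in 16.8% of all 32851 promoter windows. Gzmb, Gzmc, Gzmd, Gzme, Gzmf and Gzmg each held it at 2 places. Gzmm, with 2 windows, held it in only 1 of them. The RefSeq window of Gzmk lies inside the GENCODE span of that gene (113171608 to 113225908), so its lack of TGTGGT depends on the start used. TGACGT was found for Gzmb, Gzmc, Gzmf, Gzmg and Prf1, against 7.5% of all windows, and in Gzmc, Gzmf and Gzmg the matches of both strands overlap in 1 palindrome. GGTGTG was found for 4 genes (19.0% of all windows), TGANTCA for Gzmb alone (7.8%), CACGTG for Gzmm alone (7.2%), and GGAAG, the core of ETS sites, for 9 genes (71.4%). The upstream sequences of Gzmc to Gzmg are copies of each other, with 70.2% to 94.8% identical bases, while Gzmb shared 43.4% to 47.5% with them, so matches within Gzmc to Gzmg are not independent. A match is a description of letters and not a bound site.

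Of 21 tested genes for proteins that load, prime and release granules 9 fell and 6 rose (median log2 fold change -0.66), against 22.5% lower and 12.7% higher over all tested genes. The number that rose was 3 among earlier-stamped libraries alone and 4 with the stamp as a covariate, without a filter or without BMP9 overexpression replicate 6. Among those that fell were Cst7, a cystatin that inhibits the granzyme-activating protease in lymphocytes (-3.25), Nkg7, a granule membrane protein (-2.85), Ctsw, a cathepsin of cytotoxic cells (-2.62), Sytl2, a tethering protein of granules (-2.48), and Fasl, a death ligand (-2.31). Fasl, at 1.903 to 4.989 RPM in BMP9 overexpression, passed the filter through the Control libraries alone. The docking and priming factors Unc13d and Rab27a had log2 fold changes of -1.89 and -1.32 and passed the test. Those that rose included Ctsl, a lysosomal cathepsin (3.49), Srgn, the proteoglycan core on which granzymes are stored (1.58), and Ctsc, which cuts the propeptide from granzymes (1.51). Srgn was at 4609, 5631 and 7035 RPM in BMP9 overexpression, against 1710, 1799 and 2203 RPM in Control libraries, with no overlap. Myeloid cells also express Srgn, Ctsc and Ctsl, and macrophage markers were higher in the same libraries as given above. Whether cell makeup has a part in the rises of Srgn, Ctsc and Ctsl was not tested.

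Serpins listed as possible granzyme inhibitors were lower or did not pass the test, and not all of them are established inhibitors of granzymes. Serpinb9, the intracellular inhibitor of granzyme B, was at 25.32, 51.93 and 31.78 RPM in BMP9 overexpression, against 391.2, 321.5 and 263 RPM in Control libraries, a log2 fold change of -3.17 (SE 0.30, limma adjusted p = 5.6e-06). Of 7 tested serpins 4 fell, the others being Serpinb6b (-2.35), Serpina3f (-3.02) and Serpina3g (-1.80), and none rose. Over all tested genes 22.5% were called lower and 12.7% higher. Serpina3f, at 1.519 to 2.948 RPM in BMP9 overexpression, passed the filter through the Control libraries alone. Serpinb6a (-0.12, and 0.13 with TMM) and Serpinb1a (-0.23, and 0.02 with TMM) did not pass, nor did Serpinb9b (-0.90, limma adjusted p = 0.073).

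Of 17 tested transcription factors of cytotoxic cells 4 fell and 3 rose (median 0.18). These shares are near those over all tested genes, 22.5% lower and 12.7% higher, and are no result about the list. Eomes, a T-box factor that acts at granzyme B and perforin genes, was at 16.71, 13.83 and 6.378 RPM in BMP9 overexpression, against 164.7, 181.6 and 112 RPM in Control libraries (log2 fold change -3.59, SE 0.35). Tbx21, its T-box relative T-bet, had -2.46 and Stat4, which carries the IL-12 signal, -2.01, and both passed the test. Stat4, at 1.586 to 3.039 RPM in BMP9 overexpression, passed the filter through the Control libraries alone. Id2 also fell (-1.11, limma adjusted p = 0.044), but not with TMM scaling (-0.86, adjusted p = 0.13). Runx3, a RUNX factor of CD8+ T cells, did not pass (-0.39, limma adjusted p = 0.34). Prdm1, Nfil3 and Notch2 rose (0.99, 0.79 and 1.27), and the number of factors called higher was 1 without BMP9 overexpression replicate 6 or without a filter, 6 with TMM or edgeR and 7 with DESeq2. Over all genes edgeR called 17.9% and DESeq2 18.7% higher.

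Of 12 tested genes of the cytokine signals that drive granzyme and perforin expression 8 fell and 1 rose (median -1.38), against 22.5% lower and 12.7% higher over all tested genes. Il15ra (-0.20, and 0.04 with TMM) and Il21r (-0.50) did not pass, and Il12rb2 (-0.98, limma adjusted p = 0.047) lost its call with TMM (adjusted p = 0.14). Il2rb, the signalling chain shared by the IL-2 and IL-15 receptors, was at 456.3, 596.4 and 282.9 RPM in BMP9 overexpression, against 3597, 3717 and 3949 RPM in Control libraries (log2 fold change -3.14, SE 0.31). Il12rb1, a chain of the IL-12 receptor, had -3.02 and Il18r1, of the IL-18 receptor, -1.53. Il2rg, the common gamma chain, had -1.82, Jak3, its kinase, -1.39, and Il2ra, the IL-2 receptor alpha chain, -1.37. All of these passed the test. Il2rg, at 1.519 to 2.041 RPM in BMP9 overexpression, passed the filter through the Control libraries alone. Il15, the cytokine itself, rose by 2.12 on the log2 scale (SE 0.56, limma adjusted p = 0.0092), although its groups overlapped (23.8 to 56.24 RPM in BMP9 overexpression and 2.27 to 24 RPM in Control libraries), and this call was lost within the earlier run time stamp, with the stamp as a covariate and without a filter.

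The genes whose profile over the 6 libraries lay closest to a member were taken by root mean square distance between centred log2(RPM + 1) values, among the 8262 tested genes that averaged 10 RPM or more. Each gene named here had a log2 fold change of -2.74 or lower, a fall that the choice by distance favoured. Klra5, Klhl30 and Rgs3 averaged only 2.47, 1.04 and 3.36 RPM in BMP9 overexpression, under the 5 RPM of the filter. Closest to Gzmb were Mcm7, a subunit of the replicative helicase (distance 0.09 log2 units), Klra5, an NK receptor (0.14), Ube2t (0.15), Kcnk5 (0.16) and Ptpn13 (0.18). Closest to Prf1 were Il12rb1 and Rgs3 (0.19 each), Gimap4 (0.20), Samd3 and Lck, the kinase of T cell receptor signalling (0.21 each). Gzmc had no neighbour as near, the closest being Eomes (0.48), Top2a and Klhl30 (0.52 each), Klrd1 (0.53) and Rgs3 (0.54). The distance includes the difference between the groups, and Gzmc had the lowest log2 fold change of all tested genes in the limma fit.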

How the data were processed

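CD31-positive cells sorted from LLC tumours were profiled with an amplicon panel for mouse transcripts for Ion Torrent sequencing, per the labels' protocols. The submitters' processing notes name mm10 as build. How reads were aligned and counted is not stated in the labels. RPM values were deposited, and every column sums to the same total, which the authors' scaling produced. In every library 100% of nonzero values were whole multiples of 1 read within 0.05 reads, and reads recovered in this way served count tests as alternatives, in which edgeR called 3114 and DESeq2 3317 genes. Poisson intervals cover counting error only, since the labels mention no molecular identifiers for the amplified reads.

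Groups and replicate numbers came from the titles. Main results come from limma-trend on log2(RPM + 1), run with limma 3.58.1 under R 4.3.3. Genes entered when 3 or more libraries had 5 RPM or more, p-values were adjusted over all of them after Benjamini and Hochberg, and 0.05 was the threshold. Each adjusted p comes from it unless another tool is named. Alternatives used edgeR 4.0.16 and DESeq2 1.42.0. The procedure was also run on simulated reads with a common dispersion and few changed genes. In these data many genes changed, so nothing about them is drawn from that run. Members and gene lists were chosen with earlier results of these data known. Genes named from a list were the 3 with the smallest p and, for the granule, inhibitor, transcription factor and cytokine lists, up to 6 called genes. Neighbours by profile were the 5 nearest to Gzmb, Gzmc and Prf1. Srgn, Ctsc, Rab27a, Unc13d, Id2, Runx3, Il15, Il15ra, Il21r, Il12rb2, Gzmn and Prtn3 fall outside this rule and were picked with their values known. The same holds for Cd163, Fcer1a, Retnlg and the serpins that did not pass. Gene positions and coding sequences are those of GENCODE M21, and promoter windows those of RefSeq GRCm38.p6. A planned comparison of protein sequences was not made, and coding sequences were aligned instead (global alignment).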

Additional observations from a re-analysis of the deposited data

How the results depend on the processing

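No paired analysis was possible because the groups share no replicate number. Over all members and alternatives 183 fold changes were computed, of which 183 were below 0 and 160 passed the threshold. They are refits of the same 6 libraries. Since no member's groups overlapped in RPM, leaving out a library or changing the pseudocount could only give values below 0. Gzma, Gzmb, Gzmc, Gzmd, Gzme, Gzmf and Prf1 passed the threshold under every alternative that tested them. Gzmk lost its call among earlier-stamped libraries alone (-1.20), with the stamp as a covariate (-1.20), without BMP9 overexpression replicate 6 (-1.27) and without a filter (-1.71). The members called lower were 7 to 8 when 1 library was left out, and 5 with a mean of at least 20 RPM, where the other 5 are not tested. The number of genes called lower over the whole table was 1383 with TMM scaling and 3351 with array weights, and 1367 (without Control replicate 1) to 2312 when 1 library was left out. The genes called higher were 933 to 1240 without 1 library. The mean fold change of Gzmc to Gzmg minus that of Gzma, Gzmb, Gzmk and Gzmm stayed within -1.56 and -0.76 over 17 alternatives, and -1.56 and -0.87 without 1 library. The median of the 10 members relative to the T and NK cell markers was -0.66 with NK cell markers alone and -1.32 with T cell markers alone (log2), and -1.28 to -0.86 without 1 library. Depth limits Gzmg and Gzmm most, with 1 read each in BMP9 overexpression replicate 4.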

Other observations

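Plasmacytoid dendritic cells can also express granzyme B. Of 7 tested markers 4 fell (Irf8 at -1.42 among them) and 1 rose (Tcf4), against 22.5% lower and 12.7% higher over all tested genes. Siglech, a surface lectin of these cells, was at 21.78, 17.91 and 18.25 RPM in BMP9 overexpression, against 51.71, 36.31 and 46.01 RPM in Control libraries. Its log2 fold change was -1.16 (SE 0.30, limma adjusted p = 0.0077). Gzmn, a granzyme gene between Gzmg and Gzmf that is no member here, was at 0, 0.227 and 0.211 RPM (0, 1 and 6 reads) in BMP9 overexpression replicates 4, 5 and 6, against 0.436, 0.757 and 0.5 RPM (2, 1 and 1 reads) in Control replicates 1, 2 and 3, below the filter and with no overlap. Prtn3, a neutrophil protease gene, was at 3.039, 2.948 and 3.242 RPM in BMP9 overexpression and at 0.436, 0 and 0 RPM in Control libraries, below the filter. Of 10 measured neutrophil markers 5 were tested and these 5 rose, where 12.7% of all tested genes were called higher. Mmp8 (4.48), S100a9 (3.47) and S100a8 (3.38) had the smallest p. S100a8, at 0.757 to 2.4 RPM in Control libraries, passed the filter through the BMP9 overexpression libraries alone. Mmp8 (1.964 to 5.296 RPM), S100a9 (3.783 to 8.501 RPM) and Retnlg (3.927 to 18 RPM) would not have passed on their Control libraries. The filter therefore favoured a rise.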
